A study of Vitis vinifera with 171 samples.

Results

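GIV was 1 of the 11 vineyards from which berries were sampled in 2008, and its 9 arrays, of the 171 arrays in the series, are described here against the 90 arrays of the other 10 vineyards of that year. The arrays were chosen by the vineyard and year in their labels, and no measured value entered the choice. All 11 vineyards bore Vitis vinifera cultivar Corvina, 1 clone, and the RNA came from the pericarp of whole berries with the seeds taken out, sampled at veraison, mid-ripening and harvest with 3 biological replicates (A, B and C) at each stage. GIV, at Cavaion, lay in the Bardolino area, was trained on the overhead parral and was grafted on the rootstock SO4. Among the other vineyards, BA shared the area, the parral and SO4 with GIV, CS shared the area and the parral but not the rootstock, and VM shared the area but was trained by the Guyot system on another rootstock. BM, FA, MN and PSP lay in Valpolicella, and AM, CC and PM in Soave. GIV was sampled in 2008 only, so it is 1 site in 1 season, and its rows, soil, area, training and rootstock cannot be told apart from the vineyard itself. GIV had been set apart as a vineyard of high berry sugar; the arrays measure RNA and not sugar, so it is called by its name here.

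Veraison is the onset of ripening in the grape berry, when the berry softens, takes up sucrose from the phloem and stores it as glucose and fructose, and, in dark cultivars, begins to make anthocyanins in the skin. Xyloglucan endotransglucosylase/hydrolases (XTH) and expansins loosen the cell walls as the berry softens and swells. The green berry loses its photosynthetic RNAs as it ripens. Late in ripening, berries are known to accumulate RNAs of pathogenesis-related (PR) proteins, of stilbene synthases, which make resveratrol, and of sesquiterpene synthases.

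Each array carried 117,999 gene probes, which fell into 29,545 probe sets of mostly 4 probes, and 19,605 random control probes with no grapevine target. The deposited intensities had been quantile normalized over all arrays, and a gene's level is given here on the log2 scale, after its probes' intensities were averaged, so a difference of 1 is a 2-fold change. Of the probe sets, 5,427 could be given a gene name and 2,712 of those an annotation. Between 55.0% and 74.9% of the probe sets lay above the 95th percentile of the random probes on the GIV arrays, against 49.3% to 89.4% over all arrays of 2008. That percentile, a measure of background, was 7.89, 6.91 and 8.84 on the log2 scale in the GIV veraison arrays, 7.56, 7.27 and 7.32 in the mid-ripening arrays and 7.92, 6.91 and 6.97 in the harvest arrays. As a vineyard mean it was 7.88 in GIV at veraison, against 6.31 to 8.46 in the other vineyards (median 6.79), with GIV the second highest of 11. The 3 GIV arrays of veraison stood 0.041 apart (1 minus their mean correlation), against 0.00922 to 0.0487 in the other vineyards, so GIV was among the less repeatable vineyards there, and 0.0174 and 0.0268 apart at mid-ripening and harvest. Within its vineyard, an array correlated best with another of its own stage in all but 4 of the 99 arrays of 2008. Of these, 1 was GIV harvest A, at 0.969 with a mid-ripening array and 0.967 with its own stage, and the rest were AM veraison C and AM mid-ripening A, which correlated best with each other (0.99), and PM veraison B. Whether those AM arrays stand under each other's label was not tested. The title of BM mid-ripening B names another year, while its other labels give 2008, and the array is used here as of 2008. The 99 arrays were spread over 11 slides. All GIV arrays but harvest B sat on 1 slide, which held no other vineyard than PM at harvest (3 arrays), so that at veraison and mid-ripening slide and vineyard cannot be told apart.

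Marker genes were read as a check of the labelled tissue. As the log2 of their mean intensity, the 4 skin markers read 10.66, 10.91 and 10.78 in GIV at the 3 stages, against medians of 10.78, 10.91 and 10.64 in the other vineyards. The 6 genes whose annotation names a seed protein read 13.02, 12.95 and 12.94 in GIV, against 13.12, 13.05 and 12.98, and legumin (VIT_12s0034g01950), a seed storage protein, read 11.87, 12.10 and 12.04 at harvest in GIV, against 11.56 to 13.30 elsewhere. Signal of the annotated seed genes was thus present in the pericarp of every vineyard and, as a mean over the 6 genes, lay within the range of the others in GIV. One member, VIT_02s0154g00310, lay below every other vineyard at harvest, and its values are given with the harvest genes. The 7 green tissue markers, genes of photosynthesis, read 11.63 in GIV at veraison (11.24 to 11.93 over its arrays), against 11.89 to 13.16 in the other vineyards, 11.64 at mid-ripening, against 11.90 to 12.45, and 11.73 at harvest, against 11.72 to 12.49. Fewer green cells and less photosystem RNA per cell cannot be told apart in such bulk samples. An intensity has no true 0, so the absence of a marker could not be read.

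The question was whether GIV berries were further along in ripening than berries picked elsewhere at the same stage. A ripening position was computed for each vineyard from the genes that differed between veraison and harvest in the other vineyards, with 0 set at their mean veraison berry and 1 at their mean harvest berry. For GIV it rested on 3,734 probe sets. At veraison the GIV arrays stood at 0.125, 0.169 and 0.151, with a mean of 0.149, against -0.151 to 0.199 in the other vineyards, whose mean was 0.0063 ± 0.13 (SD, n = 10). FA alone stood higher. At mid-ripening the GIV mean was 0.691, against 0.547 ± 0.126 (range 0.354 to 0.787), and at harvest 1.076, against 0.975 ± 0.0854 (range 0.791 to 1.098). CS stood highest at both stages. GIV was therefore past the mean of the others at all 3 stages but inside their range, and an exact permutation test of 1 vineyard against 10 gave two-sided p = 0.455, 0.364 and 0.273, where the smallest p that this design allows is 0.0909.

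**Figure D1:**
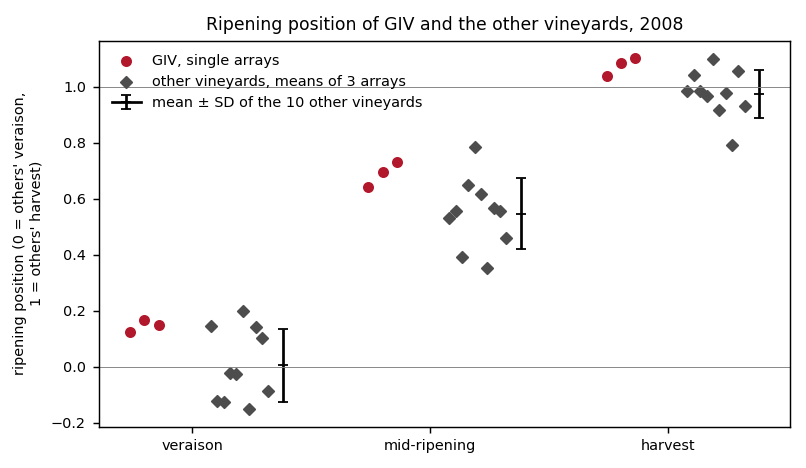
Ripening position (no unit, 0 for the mean veraison berry and 1 for the mean harvest berry of the other vineyards) at veraison, mid-ripening and harvest. Red points are the GIV arrays, grey points the means of the other 10 vineyards and the bar their mean ± SD; the GIV arrays lie between 0.125 and 0.169 at veraison, between 0.643 and 0.733 at mid-ripening and between 1.04 and 1.102 at harvest, each time above the mean of the others and, but for the harvest array at 1.102, within their range.

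Over all probe sets, the mean distance of GIV from the other vineyards (1 minus the correlation) was 0.0347 at veraison, against 0.0237 to 0.039 for the others, and 0.0233 at mid-ripening, against 0.0161 to 0.028. At harvest it was 0.0184, against 0.0189 to 0.0318, the lowest of the 11 vineyards (exact permutation p = 0.364, 0.727 and 0.182, two-sided). The vineyard nearest to GIV was VM at veraison (0.0249), FA at mid-ripening (0.0163) and AM at harvest (0.0116). BA, which shared area, training and rootstock with GIV, was 0.0327, 0.0227 and 0.0164 away. The profile of GIV thus lay within the spread of the vineyards, and at harvest in the middle of it.

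Gene by gene, GIV was set against the other vineyards with limma on triplicate means, 1 GIV mean against 10 vineyard means, and with Benjamini-Hochberg adjusted p under 0.05 as the call. At veraison 11 of 29,545 probe sets passed (0.0372% of those tested), 9 of them higher (0.0305%) and 2 lower (0.00677%). At mid-ripening 1 passed, higher in GIV (0.00338%), at harvest none and over the mean of the 3 stages none. At an unadjusted p under 0.05 there were 2,765 (9.36%), 2,487 (8.42%) and 448 (1.52%) probe sets at veraison, mid-ripening and harvest and 2,489 (8.42%) for the mean of the stages. Leaving out GIV replicate A, B or C gave 164, 1127 and 8 calls at veraison, and leaving out B gave 130 at mid-ripening, so single arrays moved the counts. The veraison count was 3 without AM veraison C and AM mid-ripening A and 1 without PM veraison B, and the mid-ripening count stayed at 1 without BM mid-ripening B. In data simulated with the veraison spread of the other vineyards, this comparison recovered 34% of genes that differed by 2 on the log2 scale. Of those that differed by 3 it recovered 84%. Differences of 2 would thus often be missed at veraison, and the other stages were not simulated. The called probe sets themselves did not describe the vineyard well: in 6 of the 12 a single GIV array lay outside all 30 other arrays, and in 5 of those on 1 of 4 probes, as in the unnamed probe set with the smallest adjusted p, which read 12.84, 4.90 and 5.01 in the GIV veraison arrays.

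The one called gene with an annotation was VIT_02s0012g02020, a GTP binding protein, which was lower in GIV at veraison. It read 9.46, 10.53 and 8.12 in GIV, against 10.88 to 11.54 (median 11.10) in the other vineyards, so that all 3 arrays lay below every other vineyard mean, with a difference of -1.77 (SE 0.26, adjusted p = 0.0487, limma). At mid-ripening it read 10.03, 11.03 and 10.81, against 11.16 to 11.82, and at harvest 9.86, 11.65 and 11.52, against 10.57 to 12.15, where the groups overlapped. The call was lost in 16 of 28 alternatives, among them other summaries of the probes, centred arrays, a filter on low genes, most fits without 1 of the other vineyards, the fit without GIV replicate C (difference -1.15, adjusted p = 0.536) and that with the random-probe level as a covariate (-1.84, adjusted p = 0.123). Its lowest reading was on the array with the highest random-probe level, 8.84. The covariate was the vineyard mean of that level, and the part of the single array's level in the result was not tested.

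The probe sets in which GIV was the highest or lowest vineyard were also counted. At veraison it stood above all 10 others in 3,591 probe sets (12.2%) and below all in 3,533 (12.0%), at mid-ripening above in 3,634 (12.3%) and below in 3,745 (12.7%), and at harvest above in 1,844 (6.24%) and below in 1,206 (4.08%). The other vineyards were each the highest of 11 in 4.81% to 15.0%, 4.43% to 16.0% and 5.76% to 16.0% of the probe sets at the 3 stages and the lowest in 4.39% to 16.7%, 4.95% to 14.6% and 4.96% to 13.7%. GIV thus lay inside the range of the others at veraison and mid-ripening, and at harvest it was the lowest vineyard less often than any other was. In 325 probe sets (1.1%), 39 of them annotated, GIV was above all others at each of the 3 stages, and in 199 (0.674%), 32 of them annotated, it was below all others each time. The annotated genes described next were taken by the size of their difference at a single stage or over the mean of the stages. Not all of them lay outside the other vineyards at each stage. They are given as values, since none of them passed the test.

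Transcriptional regulators stood among the genes that were higher throughout. OFP4 (VIT_08s0058g01110), of the ovate family of plant transcriptional repressors known from Arabidopsis, read 8.42, 7.91 and 8.89 in GIV at veraison, against 6.42 to 8.04 (median 7.31) in the other vineyards. At mid-ripening it read 10.09, 9.65 and 10.54, against 7.74 to 9.29 (median 8.18), and at harvest 10.95, 10.68 and 10.48, against 8.55 to 10.42 (median 9.58). From mid-ripening on, every GIV array lay above every other vineyard mean, and over the 3 stages the difference was 1.31 (SE 0.33, adjusted p = 0.362, limma). A bHLH transcription factor (VIT_18s0001g10300) followed the same course, with 9.61, 9.15 and 9.95 in GIV at mid-ripening, against 7.30 to 9.22 (median 8.20), and 11.15, 10.99 and 10.59 at harvest, against 8.52 to 10.55 (median 9.53). Its mean difference was 1.20 (SE 0.33, adjusted p = 0.398), and the whole list of 4 annotated bHLH genes had a median difference of 0.30, against 0.02 over all probe sets, with no member called.

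Galactinol synthase VIT_05s0077g00430, whose product galactinol feeds the synthesis of raffinose sugars, differed by 1.82 over the 3 stages. It read 10.85, 10.89 and 10.97 in GIV at veraison, against 7.02 to 11.21 (median 8.03), so that 2 vineyards exceeded GIV there. At mid-ripening it read 8.43, 9.84 and 7.33, against 5.40 to 7.46 (median 5.96), a difference of 2.41 (SE 0.57, adjusted p = 0.335), and at harvest 5.81, 6.96 and 6.27, against 4.79 to 6.96. Its readings declined over the stages both in GIV and elsewhere, and at mid-ripening 2 of the 3 GIV arrays cleared the highest other vineyard. At mid-ripening the median of the others lay below their lowest random-probe level, 6.5 as a vineyard mean. At harvest all of the others read below the median of that level, 7.05, and GIV arrays A and C below their own. The decline and the sizes of these differences thus rest in part on readings at background. The other galactinol synthase named here, VIT_14s0066g02350, rose by 1.69 in GIV between veraison and mid-ripening (adjusted p = 0.00532, limma).

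A copper-binding family protein (VIT_08s0040g00130) was apart at mid-ripening. It read 12.11, 12.12 and 11.98 in GIV, against 7.03 to 10.15 (median 8.32) in the other vineyards, a difference of 3.51 (SE 0.85, adjusted p = 0.339), which is the largest among the annotated genes named for that stage. At veraison the readings were 8.34, 7.00 and 8.34, against 6.06 to 7.91 (median 7.22), and at harvest 11.91, 12.75 and 12.01, against 9.44 to 11.34 (median 10.33). In GIV the copper-binding gene thus reached its harvest level by mid-ripening: the step of 4.18 between veraison and mid-ripening (adjusted p = 0.000473 on the GIV arrays) compared with -0.03 to 2.80 in the other vineyards, and the next step of 0.15 with 0.55 to 3.15. RAB GDP dissociation inhibitor 2 (VIT_00s2317g00010), which recycles Rab GTPases from membranes, also rose to mid-ripening, with 9.99, 10.06 and 10.31 in GIV at mid-ripening, against 7.60 to 8.60 (median 8.16), after 5.88, 6.06 and 7.47 at veraison, against 5.99 to 8.48, all 3 below the random-probe level of their arrays. Set against that level in place of the readings, its rise was at least 4.72-fold (a fitted 3.65, adjusted p = 0.000775, limma).

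Among genes of transport and pigment, a proton-dependent oligopeptide transporter (VIT_15s0021g00330) read 8.01, 8.07 and 8.82 in GIV at veraison, against 6.21 to 7.84 (median 6.57), and 1.36 higher than the others over the 3 stages. At mid-ripening its 8.92, 9.54 and 9.91 fell inside the range of 6.52 to 10.51. A gene annotated as anthocyanidin 3-O-glucosyltransferase (VIT_11s0052g01630), the reaction that makes anthocyanidins into stable pigments, read 11.50, 11.49 and 11.09 in GIV at harvest, against 8.81 to 10.95 (median 10.38), all above the other vineyards, and 10.00, 9.54 and 10.54 at veraison, against 7.62 to 10.16 (median 8.99). PROLIFERA (VIT_07s0005g01430), a factor that licenses DNA replication in Arabidopsis, read 10.02, 9.42 and 9.02 at harvest in GIV, against 7.20 to 9.49 (median 8.23), with 1 GIV array clear of the range. Heat shock protein 81-1 (VIT_02s0025g00280), an HSP90 chaperone, read 11.52, 11.08 and 11.45 in GIV at veraison, against 9.02 to 10.46 (median 9.98), but 10.71, 10.75 and 10.61 at harvest, against 9.31 to 11.43. Over the 3 stages it differed by 1.04. Heat shock protein 81-3 (VIT_14s0083g01230) differed by -1.09, HSC70-1 (VIT_07s0005g06130) by -1.41 and DnaK (VIT_07s0005g06650) by -1.25. Of the 62 heat shock and chaperone genes, 37 lay above 0 and 25 below over the stages.

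**Figure D2:**
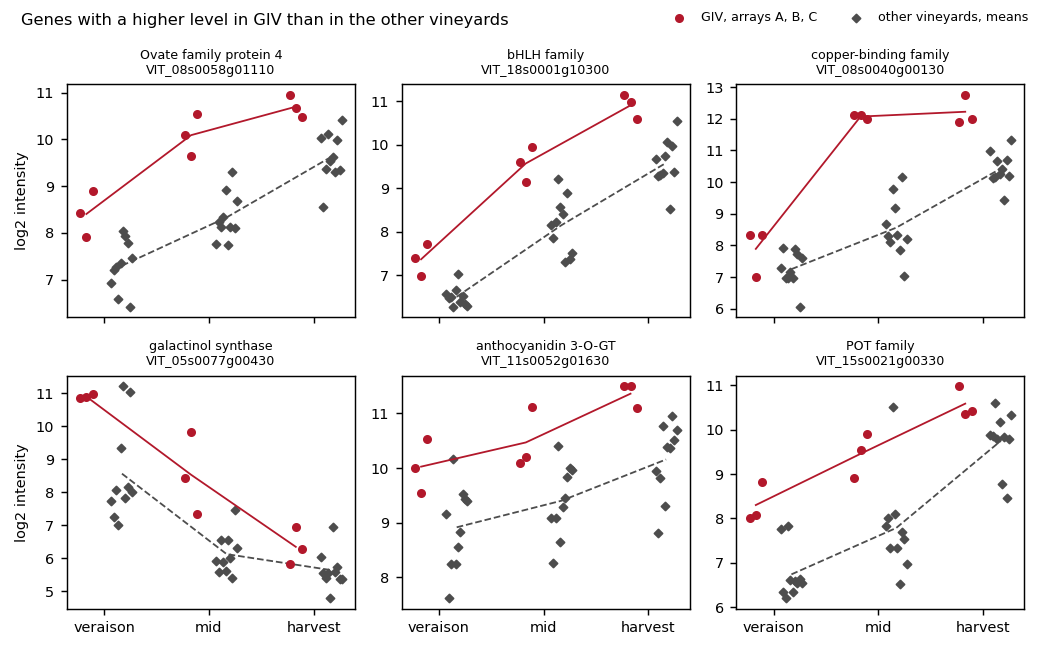
Level (log2 intensity) of 6 genes at veraison, mid-ripening and harvest, with red points for GIV arrays A, B and C, grey diamonds for the means of the other 10 vineyards and lines through the 2 group means. For OFP4 (VIT_08s0058g01110) and the copper-binding protein (VIT_08s0040g00130) the 3 GIV arrays of mid-ripening lie above every diamond (9.65 to 10.54 against at most 9.29, and 11.98 to 12.12 against at most 10.15), while galactinol synthase overlaps the others at veraison.

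The genes with the lowest values over the 3 stages also mostly read lowest on the GIV arrays of highest background. Fits with the vineyard mean of the random-probe level as a covariate are given below. The part of single arrays' background in the differences was not tested. Ribosomal protein L23 (VIT_12s0035g01010), of the large ribosomal subunit, read 7.52, 9.21 and 5.20 in GIV at veraison, against 9.07 to 11.48 (median 10.26), 7.31, 10.06 and 8.67 at mid-ripening, against 9.89 to 11.31, and 6.16, 9.99 and 10.22 at harvest, against 8.64 to 11.23. Replicate B, with the lowest random-probe level, overlapped the other vineyards at each stage, whereas replicate C at veraison and replicate A at harvest, with the highest, read far below. The mean difference was -2.06 (SE 0.48, adjusted p = 0.36, limma). Ribosomal protein L2 (VIT_17s0000g06990) read 8.08, 9.41 and 8.08 at veraison, against 9.80 to 12.10, and 7.52, 11.14 and 11.07 at harvest, against 9.17 to 12.21, with a mean difference of -2.03. The cytochrome P450 CYP81D2 (VIT_07s0129g00770) read 6.41, 6.99 and 6.21 at veraison, against 7.43 to 9.52, all below the other vineyards, and 4.76, 6.74 and 7.35 at harvest, against 6.15 to 8.92. UDP-glycosyltransferase 71A13 (VIT_12s0055g00280), which read 6.75, 7.95 and 5.03 at veraison, against 8.28 to 9.68, and a flavin-containing monooxygenase (VIT_00s0233g00120), which read 6.68, 6.88 and 4.92, against 7.47 to 9.28, had mean differences of -1.65 and -1.64.

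In 4 of these 5 genes at veraison and in 5 of 5 at mid-ripening and at harvest, the lowest GIV reading was on the GIV array with the highest random-probe level of that stage, against 0, 2 and 1 of the 5 genes that were highest over the 3 stages. Against the mean of VM, PM and BM, the vineyards that slides link to GIV, and with the slide as a term, the mean differences were -0.60 for L23 (VIT_12s0035g01010), -0.43 for L2 (VIT_17s0000g06990), -1.52 for CYP81D2 (VIT_07s0129g00770), -0.69 for 71A13 (VIT_12s0055g00280) and -0.24 for the monooxygenase (VIT_00s0233g00120). Without that term they were -1.86, -1.34, -1.62, -1.34 and -1.09. The term for GIV's main slide rests only on GIV harvest arrays A and C against B, since all PM harvest arrays sat on that slide. It therefore cannot part slide from vineyard at veraison and mid-ripening. For the 5 higher genes the values with the term were 1.20 for OFP4 (VIT_08s0058g01110), 1.19 for the bHLH gene (VIT_18s0001g10300), 3.05 for galactinol synthase (VIT_05s0077g00430), 0.89 for the transporter (VIT_15s0021g00330) and 0.87 for the glucosyltransferase (VIT_11s0052g01630), and without it 1.02, 1.09, 2.04, 1.60 and 0.89. With the random-probe level as a covariate the lower genes, in the same order, differed by -1.78, -1.60, -1.66, -1.44 and -1.32 and the higher ones by 1.13, 1.14, 2.13, 1.35 and 0.81. None of the 10 genes changed sign under either setting. Several GIV readings of these lower genes, such as the 5.20 of L23, lay below the random-probe level of their own array and are at background.

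**Figure D3:**
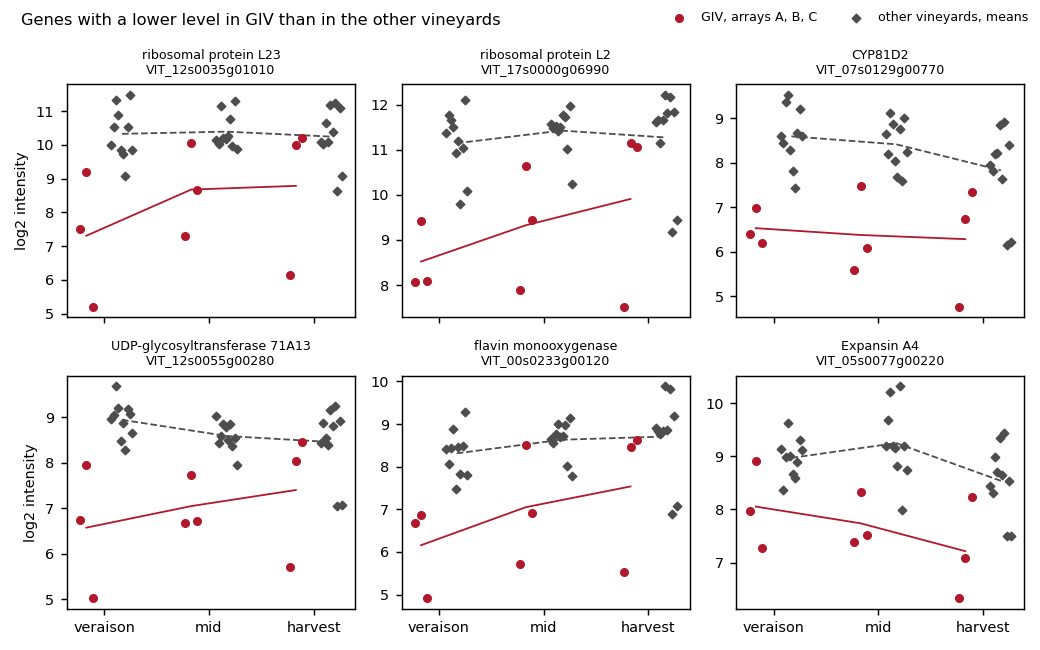
Level (log2 intensity) of 6 genes that were lower in GIV, with red points for GIV arrays A, B and C, grey diamonds for the means of the other 10 vineyards and lines through the 2 group means. The GIV arrays spread from 5.20 to 9.21 for L23 (VIT_12s0035g01010) at veraison and from 7.52 to 11.14 for L2 (VIT_17s0000g06990) at harvest. In these 2 cases the highest reading is that of array B, which had the lowest random-probe level. At harvest array C reads higher than B for L23, CYP81D2 and Expansin A4.

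The annotated genes named for the lowest harvest differences are given as values, since no probe set was called at that stage. A gene annotated as a lipid transfer or seed storage protein (VIT_02s0154g00310), which is also 1 of the 6 seed markers, read 8.23, 8.02 and 8.92 in GIV, against 9.84 to 12.48 (median 10.20), a difference of -2.31 (SE 0.92, adjusted p = 1, limma), with every GIV array below every other vineyard. Alpha-expansin 1 (VIT_17s0053g00990) read 9.33, 10.11 and 11.04, against 11.07 to 12.14 (median 11.63), and Expansin A4 (VIT_05s0077g00220) 6.33, 7.09 and 8.23, against 7.50 to 9.44 (median 8.59). Both are wall-loosening proteins, and only the C array of each reached or came near the range of the others. PSBQ (VIT_00s0904g00010), a protein of the oxygen-evolving complex of photosystem II, read 7.85, 7.68 and 7.96 in GIV, against 8.18 to 9.83 (median 8.81), all below the other vineyards. The phytosulfokine precursor PSK2 (VIT_03s0088g00290), which encodes a peptide growth factor, read 8.27, 6.92 and 7.73, against 7.64 to 10.60 (median 8.34), with 2 of 3 arrays inside the range. Within the slide shared with PM, harvest differences from PM were -1.28 for the lipid transfer protein, -1.92 for PSBQ, 1.26 for the copper-binding protein, 0.90 for the bHLH gene, 0.74 for OFP4 and 0.13 for PSK2, which is of opposite sign. No probe set was called in that comparison of 2 GIV with 3 PM arrays, and 3,600 had an unadjusted p under 0.05 (limma).

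Among the lowest values at mid-ripening were those of LOB1 (VIT_15s0046g00230), of the lateral organ boundaries family of transcription factors, with 8.25, 7.35 and 6.18 in GIV, against 7.30 to 10.56 (median 9.30), and a gene annotated as BAK1 (VIT_00s0258g00080), a co-receptor kinase of brassinosteroid signalling in Arabidopsis, with 4.96, 6.26 and 4.78, against 5.70 to 7.99 (median 7.42). The BAK1 readings lay below the random-probe level of their arrays. An aspartyl protease (VIT_04s0008g07250) read 4.77, 5.77 and 5.41, against 5.59 to 8.56, likewise below that level.

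Gene lists drawn up by words in the annotation were then described by count, and no member of any list passed the limma test of GIV against the other vineyards at any stage. Among all 2,712 annotated genes, from which the lists were drawn, 531, 471 and 111 lay below all others at veraison, mid-ripening and harvest. Of the same 2,712 genes, 362, 352 and 155 lay above all others. At veraison and mid-ripening the annotated share below was thus larger than that of all probe sets. Among 115 ribosomal proteins, 41 (against 12.0% of all probe sets) lay below all other vineyards at veraison and 4 above, 41 (against 12.7%) below and 5 above at mid-ripening, and 5 below and 2 above at harvest (against 4.08% below), with median differences of -0.19, -0.16 and -0.11. Within the slide shared with PM their median at harvest was 0.12, on the other side of 0. Of 36 oxidative stress genes 17 lay below all others and none above at veraison, 10 and 2 at mid-ripening and 4 and 2 at harvest, beside 12.0%, 12.7% and 4.08% of all probe sets below and 12.2%, 12.3% and 6.24% above, and within the slide shared with PM their harvest median was -0.02. The lowest were Cu-Zn superoxide dismutase (VIT_14s0030g00910, -1.38 over the stages) and the glutathione S-transferase GSTU22 (VIT_19s0093g00110, -1.24). The green tissue markers had median differences of -0.93, -0.85 and -0.54, and of -0.14 at harvest within the slide shared with PM, with 3 of 7 above 0. The photosystem II protein D1 (VIT_02s0012g01950), which plants encode in the plastid, read 12.16, 12.75 and 10.22 in GIV at veraison, against 12.75 to 14.07. Its partner D2 (VIT_11s0103g00110) read 9.89, 10.53 and 7.90, against 9.63 to 12.09, and both were lowest on array C, whose random-probe level was highest.

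On the other side, of 41 pentatricopeptide repeat proteins, which act on organelle RNA, 31, 36 and 34 had a positive difference at veraison, mid-ripening and harvest, with medians of 0.12, 0.20 and 0.18, against 0.05, 0.00 and 0.01 over all probe sets, and 7, 7 and 2 lay above all other vineyards, beside 12.2%, 12.3% and 6.24% of all probe sets. Within the slide shared with PM their harvest median was -0.12, on the other side of 0. Among 62 heat shock proteins and chaperones, 13 lay above all others at veraison and 9 below, 9 and 5 at mid-ripening and 2 and 4 at harvest, beside 12.2% above and 12.0% below, 12.3% and 12.7%, and 6.24% and 4.08% over all probe sets. The 15 MYB factors had a median of 0.27 over the stages, with 12 above 0 and 3 below, and of -0.10 at harvest within the slide shared with PM. MYBA1 (VIT_02s0033g00440), the regulator of skin pigment, read 8.83, 10.07 and 5.74 at veraison in GIV, against 9.00 to 11.91, and was lowest on array C. The 26 sugar genes had medians of 0.05, 0.04 and 0.12 and at harvest none above and none below all others, so that the list by which sugar metabolism was followed did not stand apart. Its lowest member, granule-bound starch synthase Ib (VIT_16s0022g00740), differed by -1.46 over the stages.

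Lists of defence and secondary metabolism had their lowest medians at mid-ripening. The 58 PR and defence genes had medians of -0.18, -0.46 and -0.18 at veraison, mid-ripening and harvest. Of them 37, 47 and 46 lay below the mean of the others, beside 13,291, 14,621 and 14,510 of all 29,545 probe sets. Below all others lay 13, 11 and 5, beside 12.0%, 12.7% and 4.08% of all probe sets. Of the 2,712 annotated genes 531, 471 and 111 did, so the counts of 13 and 11 were near the annotated share. Above all others lay 3, 4 and 2, beside 12.2%, 12.3% and 6.24%. Within the slide shared with PM the harvest median of these 58 genes was 0.14, of opposite sign. All 4 stilbene synthases and all 7 terpene synthases were below the mean of the others at mid-ripening. At harvest 3 of 4 and 7 of 7 were. The medians of the 2 lists were -1.37 and -1.05 at mid-ripening, against -0.14 and 0.31 at veraison and -0.27 and -0.60 at harvest. On every GIV mid-ripening array, stilbene synthases VIT_16s0100g01190, VIT_16s0100g01140 and VIT_16s0100g00770 read below the random-probe level. So did germacrene D synthases VIT_18s0001g04490 and VIT_18s0001g05240. The sizes of the mid-ripening medians thus rest in part on readings at background. Stilbene synthase 2 (VIT_16s0100g01140) read 6.08, 6.31 and 5.28 in GIV at mid-ripening, against 5.71 to 9.59 (median 7.84), and 8.94, 8.19 and 9.69 at harvest, against 6.70 to 10.70 (median 8.79). Germacrene D synthase VIT_18s0001g05450 read 7.44, 8.05 and 7.63 at mid-ripening, against 6.69 to 11.29 (median 8.63), and 11.53, 10.47 and 11.80 at harvest, against 10.07 to 13.34 (median 11.70). At mid-ripening no member of the 2 lists lay outside the range of the other vineyards, which itself was wide. Within the slide shared with PM, the vineyard with the lowest level of both genes, the harvest medians were 2.69 and 1.66, above 0. Paralogs of these families share sequence, and signals of single members are uncertain where probes cross-hybridize. The paper reports that probe sets of gene families were checked for specificity to each gene, and this was not tested here.

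**Figure D4:**
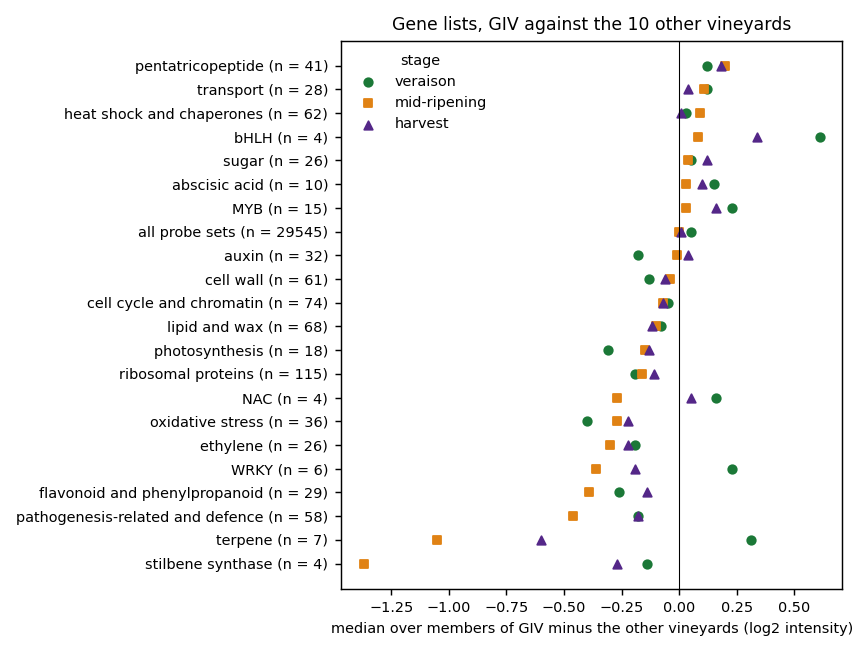
Median difference of GIV from the other vineyards (log2) over the members of 21 gene lists and over all probe sets, at each of the 3 stages. The stilbene synthase and terpene lists lie lowest at mid-ripening (-1.37 and -1.05), the oxidative stress genes are below 0 at all stages (-0.40, -0.27 and -0.22), and the medians of all probe sets are 0.05, 0.00 and 0.01. The mid-ripening values of the stilbene synthase and terpene lists rest in part on GIV readings below the random-probe level.

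The course of GIV itself was followed on its 9 arrays with limma at adjusted p under 0.01. Between veraison and mid-ripening 1,032 probe sets rose (3.49%) and 1,528 fell (5.17%), and between mid-ripening and harvest 541 rose (1.83%) and 640 fell (2.17%). In all 3,380 changed at either step, 346 of them annotated, with 170 that fell and then rose, 92 that rose and then fell, 76 that fell at both steps and 23 that rose at both. In each of the other vineyards, on that vineyard's own arrays, between 2,266 and 2,484 of the 2,560 probe sets that changed in GIV at the earlier step went the same way, beside 62.1% to 74.1% of all probe sets, as did between 1,033 and 1,162 of the 1,181 of the later step, beside 58.3% to 72.6%. With 2 arrays a stage (any 1 replicate letter left out) no probe set passed at 0.01 at either step, and at adjusted p under 0.05 there were 1,440 to 1,738 at the earlier step and 0 to 647 at the later. Leaving out harvest array B, the one on another slide, gave 284 changes at the later step in place of 1,181.

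Cell wall genes were among those that rose to mid-ripening. XTH23 (VIT_11s0052g01200), which cuts and rejoins the xyloglucan of the wall, read 12.06, 12.39 and 12.48 in GIV at mid-ripening, against 5.95, 6.48 and 6.77 at veraison, a fitted rise of 5.91 (SE 0.24, adjusted p = 4.9e-05, limma). The veraison readings lay below the random-probe level of their arrays, so the rise is given as at least 21.6-fold, the mid-ripening mean of 12.31 against the mean of that level, 7.88, in place of the measured 6.40. XTH6 (VIT_11s0052g01300) read 13.53, 13.76 and 13.82, against 9.26, 8.19 and 8.96 at veraison. In all, 5 members of this cluster rose (the other 3 are VIT_11s0052g01320, VIT_11s0052g01180 and VIT_11s0052g01310), VIT_11s0052g01180 by at least 15.8-fold on the same reckoning. Since they are close copies their probes may not read them apart, which was not tested here. Of 61 cell wall genes 12 rose and 3 fell at this step, beside 3.49% and 5.17% of all probe sets, and 1 rose and 3 fell at the next, beside 1.83% and 2.17%. Alpha-expansin 10 (VIT_06s0004g00070) ran the other way at both steps, with 12.70, 13.15 and 12.62 at veraison, 8.57, 8.48 and 7.41 at mid-ripening (a change of -4.67, SE 0.41, adjusted p = 0.000384) and 6.17, 4.90 and 5.85 at harvest, below the random-probe level (a fitted change of -2.51, adjusted p = 0.00794, and at least 1.85-fold lower against that level).

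LOB11 (VIT_13s0019g03760), a transcription factor of the lateral organ boundaries family, read 7.63, 6.90 and 6.64 at mid-ripening, against 11.87, 11.66 and 11.49 at veraison, a change of -4.62 (SE 0.30, adjusted p = 0.000223, limma), with 2 of the 3 mid-ripening readings below the random-probe level. Flavonol synthase (VIT_13s0047g00210), which makes the colourless flavonols, fell by 2.87 (adjusted p = 0.000384) and read 8.66, 8.45 and 8.10 at mid-ripening in GIV, against 7.98 to 11.42 (median 10.60). Its next step was -0.10 in GIV, against -2.74 to -0.52 elsewhere. Of 18 photosynthesis genes 3 fell and 1 rose to mid-ripening and 3 fell to harvest, beside 5.17% and 3.49% and then 2.17% of all probe sets, with PSBQ (VIT_00s0904g00010) falling at both steps (by 2.04, adjusted p = 0.00225, and by 1.88, adjusted p = 0.00561). Of 62 heat shock and chaperone genes, 14 rose and 2 fell to mid-ripening, beside 3.49% and 5.17% of all probe sets, and 6 fell and none rose to harvest, beside 2.17% and 1.83%: HSP81-1 (VIT_02s0025g00280) rose by 1.99 and fell by 2.65, and the chaperone DnaJ (VIT_01s0011g04820) rose by 3.67 and fell by 1.12. No heat shock gene was called in the test of GIV's steps against those of the other vineyards.

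Defence and aroma genes were among those that rose to harvest. PR1 (VIT_03s0088g00700) rose by 3.33 (adjusted p = 0.00285, limma) after a rise of 2.85, and PR10 (VIT_05s0077g01530) by 3.36 (adjusted p = 0.00112). Germacrene D synthase VIT_18s0001g05450 rose by 3.56 (adjusted p = 0.00441), stilbene synthase 2 (VIT_16s0100g01140) by a fitted 3.05 (adjusted p = 0.00679) and stilbene synthase VIT_16s0100g00770 by a fitted 2.77 (adjusted p = 0.00317). Both stilbene synthases read below the random-probe level at mid-ripening, and against it they rose at least 2.94-fold and 1.71-fold. Of 58 PR and defence genes 7 rose and none fell at this step, beside 1.83% and 2.17% of all probe sets, after 7 of each at the earlier one, and the list medians were 2.70 for the stilbene synthases and 3.31 for the terpene synthases, against 0.01 over all probe sets; both medians rest in part on mid-ripening readings below the random-probe level. An ethylene-responsive protein (VIT_13s0019g00540) read 9.48, 8.94 and 9.01 at harvest, against 5.58, 5.04 and 5.96 at mid-ripening, again below the random-probe level (a fitted 3.61, adjusted p = 0.0015, and at least 3.39-fold against that level). The cell wall invertase VIT_09s0002g02320, which splits sucrose in the apoplast, rose by 1.66 (adjusted p = 0.00188) and MYB24 (VIT_14s0066g01090) by 1.70 (adjusted p = 0.00779). GATA transcription factor 16 (VIT_05s0077g01450) fell by 2.80 and an XTH precursor (VIT_00s0386g00050) by 3.06. Of 74 cell cycle and chromatin genes 7 rose and 1 fell, beside the same shares, led by histone H1 (VIT_05s0020g04800), up by 2.22.

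**Figure D5:**
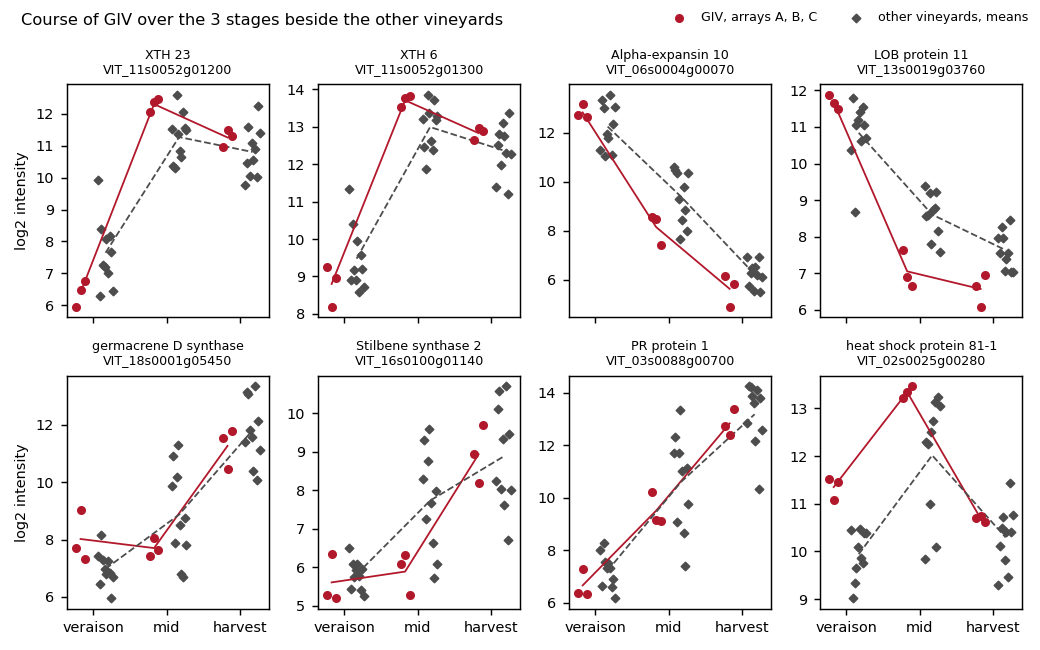
Level (log2 intensity) of 8 genes over the 3 stages, with red points for GIV arrays A, B and C, grey diamonds for the means of the other 10 vineyards and lines through the 2 group means. The 2 XTH genes (VIT_11s0052g01200 and VIT_11s0052g01300) reach 12.06 to 12.48 and 13.53 to 13.82 in GIV at mid-ripening, LOB11 and alpha-expansin 10 fall, and germacrene D synthase, stilbene synthase 2 and PR1 rise to harvest.

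The steps of GIV were set against those of the other vineyards by limma on the differences of triplicate means. At the step to mid-ripening 1 probe set passed (0.00338%) and at the step to harvest 1 (0.00338%), both unnamed and lower in GIV. GIV's step exceeded those of all 10 others in 2,059 probe sets (6.97%) and lay below all in 2,265 (7.67%) at the earlier step, and in 1,523 (5.15%) and 1,626 (5.5%) at the later. The stilbene synthases and terpene synthases had median step differences of -1.32 and -1.35 to mid-ripening and 1.11 and 0.62 to harvest, against -0.01 and 0.01 over all probe sets, with no member called. These medians rest in part on GIV mid-ripening readings below the random-probe level. Trans-zeatin O-glucosyltransferase (VIT_08s0007g08910), which stores cytokinin as a glucoside, had a step of 0.45 to harvest in GIV, against 1.68 to 3.66 elsewhere.

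BA, which shared area, training system and rootstock with GIV, was the closest vineyard by design. Over the 3 stages, 9 arrays against 9, limma called 9,524 probe sets (32.2%), 5,557 higher in GIV (18.8%) and 3,967 lower (13.4%). These p-values measure the spread between berries of 2 vineyards only, and GIV and BA lie on different slides, so that vineyard and slide cannot be told apart. Without replicate A of both vineyards 3,466 were called, and without B 5,389. The anthocyanidin 3-O-glucosyltransferase VIT_11s0052g01630 differed by 2.39 (SE 0.15, adjusted p = 2.26e-07), BA being the lowest of the 10 other vineyards at every stage. Galactinol synthase VIT_05s0077g00430 differed by 2.46 (adjusted p = 0.0019), OFP4 (VIT_08s0058g01110) by 1.74 (adjusted p = 8.91e-06) and the copper-binding protein VIT_08s0040g00130 by 1.94. Lower in GIV than in BA were a thaumatin (VIT_02s0025g04270, -1.94, adjusted p = 0.000496), the lipid transfer protein VIT_02s0154g00310 (-1.96), PSBQ (VIT_00s0904g00010, -1.53) and stilbene synthase VIT_16s0100g00770 (-1.67).

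Against BA, 25 of 58 PR and defence genes were lower in GIV and 5 higher, 15 of 26 ethylene genes lower and 2 higher, and 10 of 29 flavonoid and phenylpropanoid genes lower and 2 higher, beside 13.4% lower and 18.8% higher over all probe sets. Among the 2,712 annotated genes, from which the lists were drawn, 553 were lower and 548 higher. Higher in GIV were 21 of 41 pentatricopeptide proteins, with 1 lower, 21 of 62 heat shock proteins and chaperones, with 6 lower, and 17 of 74 cell cycle genes, with 2 lower. The count of 17 higher cell cycle genes was near the annotated share. Of the ribosomal proteins 44 of 115 were lower and 5 higher, and of the oxidative stress genes 16 of 36 were lower and 3 higher. BA is 1 of the 10 other vineyards and the GIV arrays are the same, so this is no separate evidence of a difference. Within the slide shared with PM the harvest medians of these 2 lists were 0.12 and -0.02. Many of the named genes came from lists that the study drew up as variable on these samples, so the share of named genes that differ is not independent evidence of a difference between vineyards.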

How the data were processed

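Berry pericarp RNA was measured on NimbleGen arrays, and the deposited tables hold linear Cy3 intensities per probe, which the authors had quantile normalized over all 171 arrays; per the labels the tool was RMA, with no version given in the sources used here. Probe sets were rebuilt from the probes' tiling, their probes averaged and log2 taken. Names came from matching probe sets to the study's lists by their values (correlation of at least 0.95, or 0.99, with a lead of 0.01), so named genes are weighted towards genes listed as variable on these samples.

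GIV was compared with the 10 other vineyards on triplicate means by limma 3.58.1 (R 4.3.3; Python 3.11.15), with the vineyard as the unit and Benjamini-Hochberg adjusted p under 0.05. GIV's course and GIV against BA were fitted on single arrays, the course at adjusted p under 0.01. A single value was tested by exact permutation over vineyards. All adjusted p-values in the text are limma's. Genes were named where the GIV mean lay outside the 10 others with all its arrays on 1 side, by size of difference, and, where no gene passed, as values. The 24 lists were made by words in the annotation with up to 4 examples by size. Members, lists and tests were chosen with earlier results of these data known. The fits were tested on simulated data. The number of arrays limits the precision. Replicates are 3 berry samples per vineyard and stage. Replicate letters are not stated to pair samples, so the main fit of the course had no replicate block. Correlations of same-letter deviations between stages were -0.428 to 0.585, and those of letter B were all positive (0.351, 0.289 and 0.357). Pairing by letter was thus neither shown nor excluded. Alternatives in summarisation, scaling, filter, threshold, model and samples were run. No sequence is printed, and the slide as a term over all vineyards could not be fitted.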

Additional observations from a re-analysis of the deposited data

Results flagged for a closer look

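Among the 10 other vineyards, 3 of 57 groups of values held 1 vineyard far from the rest by Dixon's 95% criterion. Chance marks about 1 in 20 such groups. At mid-ripening PM had a level of 5.7 for the BAK1 gene VIT_00s0258g00080, and the next vineyard 6.93. Over the 3 stages CC had 9.37 for the transporter VIT_15s0021g00330, and the next 8.49. At the step to harvest PM had -0.52 for flavonol synthase VIT_13s0047g00210, and the next -1.81.

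The step of GIV differed from that of the other vineyards for 1 unnamed probe set to mid-ripening, by -2.47 (adjusted p = 0.00455, limma), and for 1 unnamed probe set to harvest, by -2.28 (adjusted p = 0.0484, limma). Both differences rested on 1 GIV array.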

How the results depend on the processing

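Counts of probe sets called between GIV and the other vineyards moved widely. At veraison (11) they were 0 with median polish, with the median of the probes, with genes above the random probes only and with the random-probe level as a covariate (added after seeing the data), 20 with 50 added, 4 with centred arrays, 49 with trend and robust eBayes, 1 at adjusted p under 0.01 and 106 with ripening position as a covariate. At mid-ripening (1) they were 2 with 50 added and 0 with median polish, the probe median, the filter, the stricter threshold and either covariate, and at harvest (0) 2 with 50 added. For the steps (1 each) they were 0 with median polish, the probe median and the filter; the earlier step had 5 with 50 added and the later 0 with trend and at the stricter threshold. Single arrays as units, which treats berries of 1 vineyard as replicates, gave 6023, 8054 and 2329 at the 3 stages, 12587 for their mean and 1463 and 255 for the steps. With slide as a random block they were 4069, 2606, 3236 and 6506, and with a replicate block 5643, 7821, 2019 and 12535. Against VM, PM and BM (added after seeing the data) the counts were 7885, 4788, 1335 and 10136 without a slide term and 7, 3, 374 and 11 with it. For GIV's main slide that term rests only on GIV harvest arrays A and C against B. The cause of the drop in counts was not tested.

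Leaving out a replicate gave 5 to 1127 at veraison (1127 without GIV B), 3 to 130 at mid-ripening (130 without GIV B), 1 to 5 at harvest, 0 to 196 for the mean (196 without every B), 6 to 27 and 2 to 14 for the steps. Without the arrays in doubt (added after seeing the data) veraison gave 3 (AM) and 1 (PM), and other counts did not move. Leaving out a vineyard gave 1 to 75 at veraison (75 without MN, 35 without PSP), 0 to 5 at mid-ripening, 1 for the mean without PM, 2 for the earlier step without CC and 0 to 1 for the later. GIV's course (2560 and 1181) gave 0 at either step without any 1 replicate letter, which leaves 2 arrays a stage, 1383 and 174 with a replicate block and 5720 and 3891 in a fit of all 99 arrays. The later step gave 284 without the GIV array on another slide. The methods' exact Kruskal-Wallis test over the 3 stages, which tests no single step, gave 3188 at an unadjusted p under 0.01. That count is not comparable with the others, which rest on adjusted p. GIV against BA (9524) gave 3466, 5389 and 7224 without replicates A, B and C. Ripening position at mid-ripening was 1.13 on an axis ending there. PSK2 (VIT_03s0088g00290) at harvest was 0.13 within the slide shared with PM, of opposite sign to its value with all arrays. The step difference of histone H3 (VIT_04s0044g00560) to mid-ripening ranged from -4.04 without replicate B to 0.06 without replicate C, which alone read high at veraison.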
